A study of Mus musculus with 13 samples.

Results

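The G2/M and mitosis genes are a list of 40 genes that act between the end of DNA replication and the separation of daughter cells. They were matched by symbol to the gene annotation, and all 40 were found among the 35498 genes with a matched transcript. Of the 40, 39 passed the filter on low counts and were among the 13044 genes tested, and 1 (Ccnb2) did not. The list was taken as given, and it was chosen with earlier results of these data known. No measured value served as a rule for membership.

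Entry into mitosis is driven by Cdk1, a kinase that is active only when bound to a B-type or A-type cyclin and freed of inhibitory phosphate by Cdc25 phosphatases. Polo-like and Aurora kinases, kinesin motors and spindle proteins then build the spindle, the checkpoint proteins hold the cell until chromosomes are attached, and Cdc20 and the anaphase-promoting complex release it into anaphase. Most of these genes are transcribed in a wave late in the cycle, under Foxm1, B-Myb and the DREAM/MuvB complex, so that their mRNA is a common measure of dividing cells in tumour cultures. In bulk RNA, fewer cells in G2/M and less of a transcript in each cell cannot be told apart.

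The data are 13 mRNA sequencing libraries of mouse melanoma cell lines in culture, in a study of sAC (soluble adenylyl cyclase, which produces cyclic AMP) expressed in separate microdomains of the cell. Doxycycline, an antibiotic used as a chemical switch for inducible genes, was added to the medium. The NLS lines, numbered 6, 7 and 16, were sampled without doxycycline (NLS t0), after 6 h (NLS t6) and after 48 h (NLS t48), with 3 libraries in each group. The LacZ lines, numbered 10 and 12, were sampled without doxycycline (LacZ t0) and after 48 h (LacZ t48), with 2 libraries in each group. The NLS t6 and t48 libraries carry the microdomain label nuclear and all t0 libraries carry none. The LacZ t48 libraries carry nuclear too, although their titles name LacZ, and here they are grouped by title. Each line number stands for 1 cell line, and no separate cultures of a line at the same time are labelled, so the spread within a group is the spread between lines. The sources used here do not say how the lines were derived or which promoter drives each construct.

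Library totals were 18512887 to 22584628 estimated reads. Adcy10, the mouse gene of sAC, did not follow the doxycycline labels. In the libraries labelled t0, t6 and t48 it was at 365.6, 371.2 and 339.2 CPM (estimated read counts scaled to a common library size) in line 6 and at 200.4, 181.2 and 199.1 CPM in line 7. It was at 0.67, 1.19 and 1.22 CPM in line 16, and the LacZ libraries had 0 to 3 reads each. The times are therefore those of the labels, and every direction over time is drawn between libraries so labelled. Of 7 melanocyte markers, Mitf was at 2.76 to 5.37 CPM, Tyr reached 0.933 CPM at most and Tyrp1 was at 0 in all 13 libraries, so the labelled melanoma origin has little pigment-lineage RNA behind it. Markers of other cell types were mixed. Of 7 fibroblast markers, Col1a1 was at 2555 to 6924 CPM and Pdgfrb at 161 to 221 CPM, while Dcn was at 3.13 to 18.5 CPM and Lum at 0 in 12 libraries. Of 6 leukocyte markers, Ptprc was at 0 in 12 libraries, while Cd68 was at 5.64 to 14.1 CPM. Their part in the results was not tested.

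The promoters of the list are shown first because the genes are best known for a shared pair of promoter elements. RefSeq promoter windows on GRCm38.p6 were found for 33 of the 40 genes, 35 windows in all, each reaching mostly upstream and a short way downstream of an annotated start. Foxm1, Ccna2, Kif20a, Aurkb, Tpx2, Cdc25c and Smc4 were not matched. The windows were searched on both strands for the CCAAT box (CCAAT, bound by NF-Y) and for the letters of the cell cycle homology region, or CHR (TTTGAA or TTCGAA, bound by MuvB complexes). TTCGAA reads the same on both strands, and a CCAAT and a CHR can overlap by an end letter. A CHR was found in 29 of the 35 windows (82.9%), against 19.2% of all 32851 windows, and a CCAAT in 29 (82.9%), against 37.4%. Both were present in 26 windows (74.3%), against 7.52% of all. More than 1 CCAAT was present in 51.4% of the windows of the list and 11.7% of all windows. A match of letters is a description of the window, and binding was not measured. The 5 windows printed are those of the B-type cyclins Ccnb1 and Ccnb2, whose levels are compared, and of Racgap1, Prc1 and Cdc20, which changed in several comparisons. They were picked after their values were seen. Capitals mark CCAAT (or ATTGG, its complement on the other strand) and TTTGAA. The regions, all on GRCm38.p6, are chr13:100786437-100786736 on the minus strand for Ccnb1, chr9:70421505-70421804 on the minus strand for Ccnb2, chr15:99651607-99651906 on the minus strand for Racgap1, chr7:80294201-80294500 on the plus strand for Prc1 and chr4:118437294-118437593 on the minus strand for Cdc20. Each is written 5′ to 3′ along its gene.
Ccnb1: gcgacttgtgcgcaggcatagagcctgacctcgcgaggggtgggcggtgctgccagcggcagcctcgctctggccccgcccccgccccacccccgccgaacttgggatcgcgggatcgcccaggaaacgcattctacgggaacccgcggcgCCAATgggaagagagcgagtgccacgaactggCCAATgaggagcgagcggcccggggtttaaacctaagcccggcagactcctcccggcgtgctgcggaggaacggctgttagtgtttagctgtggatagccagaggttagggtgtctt
Ccnb2: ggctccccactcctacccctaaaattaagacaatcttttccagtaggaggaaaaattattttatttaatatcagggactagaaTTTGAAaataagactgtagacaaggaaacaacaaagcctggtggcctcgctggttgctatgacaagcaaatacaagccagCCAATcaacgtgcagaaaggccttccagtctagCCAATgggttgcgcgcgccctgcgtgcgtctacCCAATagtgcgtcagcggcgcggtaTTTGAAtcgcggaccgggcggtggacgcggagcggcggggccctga
Racgap1: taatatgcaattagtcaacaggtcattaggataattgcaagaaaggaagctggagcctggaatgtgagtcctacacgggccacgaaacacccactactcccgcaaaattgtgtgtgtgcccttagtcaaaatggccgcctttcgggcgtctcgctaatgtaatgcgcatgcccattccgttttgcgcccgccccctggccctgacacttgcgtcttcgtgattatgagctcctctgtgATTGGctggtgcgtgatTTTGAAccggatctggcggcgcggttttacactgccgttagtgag
Prc1: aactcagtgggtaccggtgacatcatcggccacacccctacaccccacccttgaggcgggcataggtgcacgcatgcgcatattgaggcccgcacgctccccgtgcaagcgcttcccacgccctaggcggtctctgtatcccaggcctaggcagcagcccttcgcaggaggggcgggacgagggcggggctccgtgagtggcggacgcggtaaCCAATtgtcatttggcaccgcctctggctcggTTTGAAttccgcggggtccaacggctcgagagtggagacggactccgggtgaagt
Cdc20: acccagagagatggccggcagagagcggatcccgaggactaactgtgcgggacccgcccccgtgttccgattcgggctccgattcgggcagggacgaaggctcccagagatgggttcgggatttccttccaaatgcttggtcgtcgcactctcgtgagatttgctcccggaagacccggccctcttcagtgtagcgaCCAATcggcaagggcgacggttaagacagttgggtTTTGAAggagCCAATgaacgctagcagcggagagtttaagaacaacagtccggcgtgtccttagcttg
The Ccnb1 window holds 2 CCAAT boxes and neither TTTGAA nor TTCGAA, the only CHR letters searched. That of Ccnb2 holds 3 CCAAT boxes and 2 CHRs. Racgap1 and Prc1 each show 1 CCAAT and 1 CHR, and Cdc20 shows 2 and 1.

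Levels of the list were first compared per unit of transcript length, as TPM (length-scaled transcript levels that sum to the same total in each library). Cdk1, the mitotic kinase itself, was the highest at a median of 340.4 TPM over the 13 libraries (range 299 to 398). Racgap1, a component of the spindle midzone, followed at 311 TPM, Birc5, the survivin subunit of the chromosomal passenger complex, at 276 TPM, Ube2c, the ubiquitin-conjugating enzyme of the anaphase-promoting complex, at 239 TPM and Top2a, the topoisomerase that untangles sister chromatids, at 191 TPM. The ranges of Cdk1 and Racgap1 overlapped (Racgap1 reached 374 TPM), as did those of Birc5 and Ube2c (221 to 336 TPM and 207 to 279 TPM). At the lower end were the kinesin Kif15 at 19.1 TPM, Cdc25c at 21.4 TPM, and the large centromere proteins Cenpe, just above Cdc25c, and Cenpf at 23.0 TPM. These medians are over both constructs, with 9 of the 13 libraries from NLS lines, and the order differed in the LacZ lines. There Kif20a, at a mean of 277 TPM at t0 and 353 TPM at t48, was second to Cdk1 and above Racgap1 (214 and 240.3 TPM), and Cdc25c was at 59.1 and 63.9 TPM.

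Ccnb2 stood apart from the other 39 genes. It encodes cyclin B2 (ENSMUSG00000032218, GRCm38 chromosome 9, 70407692 to 70421547, minus strand), which like cyclin B1 partners Cdk1. Between 1 and 9 reads per library were assigned to it, 0.0556 to 0.467 CPM, whereas Ccnb1 (ENSMUSG00000041431, chromosome 13, 100778650 to 100786570, minus strand) had 1785 to 3027 reads, 94.8 to 157 CPM. The annotation gives Ccnb2 1 transcript, and its processed copy Ccnb2-ps held at most 1 read in a library. Genes beside it were well covered. Rnf111, a ubiquitin ligase gene, was at 38.3 to 47.0 CPM, and Myo1e, a myosin gene, at 71.4 to 109.7 CPM. The lower genome coordinate of Rnf111 lies 17.7 kb from that of Ccnb2. The third B-type cyclin, Ccnb3, was at 0.0499 CPM at most. All 13 libraries were at or under 0.467 CPM, too low to test Ccnb2 between groups. The reads assigned to B-type cyclins were thus almost wholly those of Ccnb1, while the Ccnb2 window carries the elements shared by the list. Salmon's transcript set is not known here and unmatched transcripts were left out. Whether Ccnb2 reads were missed in that way was not tested.

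Summed over the list, the CPM of line 7 exceeded that of lines 6 and 16 at each time, and t6 exceeded t0 in each line. Kif20a and Cdc25c were left out of this sum because they differed several-fold between the LacZ and NLS lines. The remaining 38 genes came to 5627, 6581 and 5585 CPM in lines 6, 7 and 16 at NLS t0. At NLS t6 they came to 6340.3, 7009 and 6085 CPM, and at NLS t48 to 5374, 5828 and 5287 CPM. The LacZ lines 10 and 12 had 5284 and 5279 CPM at t0 and 6114 and 6095 CPM at t48. The NLS libraries at t48 were the lowest of their line in all 3 lines, and the LacZ libraries at t48 were the highest of theirs in both.

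**Figure D1:**
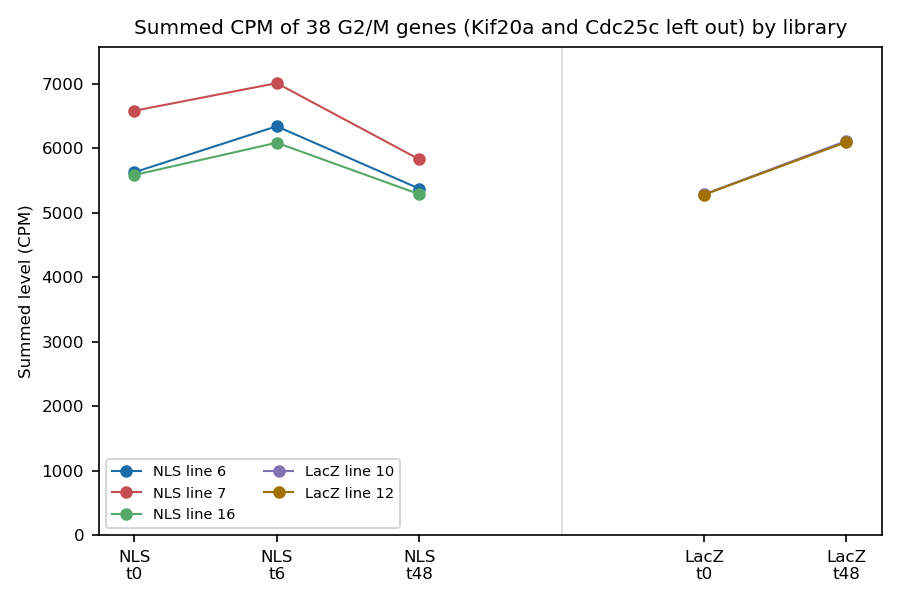
Summed level, in CPM, of 38 G2/M genes in each of the 13 libraries. Each point is 1 library, lines join libraries of the same cell line, and the axis starts at 0. Line 7 is above lines 6 and 16 at each time, NLS t48 is the lowest point of each NLS line, and LacZ t48 lies above LacZ t0, where the points of both lines nearly coincide.

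The first question was which mitotic genes differed 6 h after doxycycline in the NLS lines. Genes were called at a Benjamini-Hochberg adjusted p below 0.05 over all 13044 genes. At NLS t6, 8 of the 39 genes were called higher than at t0 and 0 lower, where 11.6% of all genes were called higher and 9.23% lower. The 8 were Prc1, Plk1, Kif4, Ccnb1, Foxm1, Mki67, Ccna2 and Birc5. The median log2 fold change of the 39 was 0.11, that of all genes was -0.00, and no gene of the list moved by more than 0.45. In each of the 3 lines t6 was above t0 for 23 of the 39, against 29.4% of all genes. With the cell line as a block, 18 rose and 2 fell (18.7% and 16% of all genes).

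Prc1 and Plk1 had the clearest increases. Prc1, which bundles microtubules in the spindle midzone, was at 248, 257 and 235 CPM in lines 6, 7 and 16 at t0 and at 322, 329 and 289 CPM at t6. All t6 libraries were above all t0 libraries, and the log2 fold change was 0.35 (SE 0.06, adjusted p = 0.000788). Plk1, the polo-like kinase that drives mitotic entry and spindle assembly, was at 115, 124 and 124 CPM at t0 and at 140.5, 157 and 158 CPM at t6, again without overlap. Its log2 fold change was 0.32 (SE 0.06, adjusted p = 0.00215). These were also the genes that kept their call in every fit that left out 1 library or 1 line (highest adjusted p 0.0344 for Prc1 and 0.0396 for Plk1).

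The other 6 had smaller or less even increases. Ccnb1 was at 110.0, 127 and 104 CPM at t0 and at 137, 157 and 134 CPM at t6 in lines 6, 7 and 16, a log2 fold change of 0.33 (SE 0.08, adjusted p = 0.0148) with no overlap. Foxm1, the transcription factor of the late-cycle wave, was at 142, 151 and 141 CPM and then at 160.3, 174 and 161 CPM, a log2 fold change of 0.19 (SE 0.06, adjusted p = 0.0252). Birc5 was at 168, 171 and 163 CPM and then at 184.5, 192 and 183.5 CPM, a log2 fold change of 0.16 (SE 0.05, adjusted p = 0.0444). For these 3 genes every t6 library lay above every t0 library. Mki67, the chromosome-surface protein Ki-67, had the largest log2 fold change of the 8 at 0.45 (SE 0.13, adjusted p = 0.0362). It was at 254, 385 and 281 CPM at t0 and at 411, 458 and 385 CPM at t6, so the t0 library of line 7 nearly reached the t6 library of line 16. Kif4, a chromosome-bound kinesin, was at 83.4, 100.1 and 82.0 CPM and then at 109, 110.2 and 107 CPM (log2 fold change 0.30, SE 0.07, adjusted p = 0.00759). Ccna2, the gene of cyclin A2, was at 221, 245 and 222 CPM and then at 259, 278 and 245 CPM (0.18, SE 0.06, adjusted p = 0.0368), with the t0 library of line 7 just above the t6 library of line 16. Without the cell line as a block, calls rested on few libraries. The blocked fits were not repeated with a library or line left out. Over all genes, 2716 calls fell to 994 without line 6 and to 1361 without line 16. Without line 6 or without line 16, 2 of the 39 were called, without the t0 library of line 16 or of line 6, or without the t6 library of line 7, 3 were called, and without the t6 library of line 6, 5. Without line 7 the count was 13, and without its t0 library 17. Calls were lost by Kif4 without line 16 (adjusted p = 0.0855) or line 6 (0.126), by Ccnb1 and Foxm1 in 5 of 9 such fits (up to 0.125, without line 6, and 0.16, without line 16), Ccna2 and Mki67 in 6 (up to 0.263 and 0.205, both without line 6) and Birc5 in 8 (up to 0.239, without line 16).

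The 4 anaphase genes, Cdc20, Ube2c, Pttg1 and Espl1, which control or carry out the separation of sister chromatids, had log2 fold changes from -0.19 (Pttg1) to -0.00 (Espl1) at t6 that did not pass the test without the block. With the cell line as a block, Cdc20 fell by 0.14 (adjusted p = 0.013) and Aurkb, the Aurora kinase of the chromosomal passenger complex, by 0.13 (adjusted p = 0.031). The same fit called 10 more genes higher, among them Cenpe (0.39), Smc4 (0.31), Cenpf (0.27) and Ect2 (0.25). Cenpe and Cenpf are kinetochore proteins, Smc4 is a condensin subunit and Ect2 acts in cytokinesis.

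After 48 h in the NLS lines the direction was down. At NLS t48, 8 of the 39 were called lower than at t0 and 0 higher, where 11.3% of all genes were called lower and 14.8% higher. The 8 were Birc5, Ccna2, Racgap1, Cdc20, Aurkb, Cdc25b, Ect2 and Anln, of which 4 are among the 5 midzone and cytokinesis genes. The median log2 fold change of the 39 was -0.13, against -0.01 over all genes. For 21 of the 39, t48 was below t0 in each line, against 32.1% of all genes. With the cell line as a block, 17 fell and 3 rose (18.8% and 21% of all genes). The 3 that rose were Plk1 (0.16, adjusted p = 0.0044), Bub1b (0.15, adjusted p = 0.009) and Tpx2 (0.14, adjusted p = 0.0094), which act in spindle assembly and its checkpoint.

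Birc5 fell most clearly. Its level was 136, 133 and 137 CPM at t48 in lines 6, 7 and 16, below all 6 NLS libraries at t0 and t6, with a log2 fold change of -0.31 against t0 (SE 0.05, adjusted p = 0.000736). Its call was kept in all fits that left out 1 library or 1 line. Aurkb, its partner kinase, was at 89.5, 94.5 and 81.6 CPM at t0 and at 69.2, 77.1 and 72.4 CPM at t48 (log2 fold change -0.28, SE 0.07, adjusted p = 0.0129), without overlap. Cdc20, the activator of the anaphase-promoting complex, was at 122, 123 and 125 CPM at t0 and at 99.1, 101 and 110.0 CPM at t48 (-0.25, SE 0.06, adjusted p = 0.009), also without overlap. Ccna2 was at 192, 199.9 and 189 CPM at t48, a log2 fold change of -0.25 (SE 0.06, adjusted p = 0.00644), below all its t0 libraries.

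Among the cytokinesis genes, Racgap1 was at 659.8, 718 and 657 CPM at t0 and at 557, 597 and 570.0 CPM at t48, a log2 fold change of -0.24 (SE 0.06, adjusted p = 0.00884). Anln, which encodes the scaffold anillin, was at 325, 415 and 347 CPM at t0 and at 278, 318 and 287 CPM at t48 (-0.30, SE 0.09, adjusted p = 0.03). Ect2 was at 97.1, 115 and 93.5 CPM and then at 79.0, 89.3 and 80.1 CPM (-0.30, SE 0.09, adjusted p = 0.0248). Every t48 library lay below every t0 library for these 3 genes. Cdc25b, a phosphatase that starts Cdk1 activation, was at 141, 144 and 117 CPM and then at 109, 115 and 99.7 CPM (-0.31, SE 0.09, adjusted p = 0.0155), again without overlap. Prc1, the remaining midzone gene, was at 257, 262 and 250.3 CPM at t48 and was not called against t0. Most of these calls were lost without line 6. Without it 2 of the 39 were called. The calls lost were those of Ccna2 (adjusted p = 0.0508), Racgap1 (0.0844), Cdc20 (0.0966), Aurkb (0.16), Cdc25b (0.149), Ect2 (0.141) and Anln (0.0765). Their log2 fold changes in that fit ran from -0.34 (Anln) to -0.23 (Cdc20), and over all genes the calls fell from 3402 to 1592. Without the t48 library of line 6 or of line 16 alone, 5 were called, and Aurkb, Ect2 and Anln lost theirs without the former (adjusted p = 0.0592, 0.0853 and 0.101) and Cdc25b, Ect2 and Anln without the latter (0.0583, 0.0683 and 0.0785). Without the t0 library of line 7 the same 3 missed the threshold (0.0532, 0.0959 and 0.108), as did Cdc25b without the t0 library of line 6 (0.0552) and Anln without line 16 (0.0988). Without the t0 library of line 7, 3 members (Bub1, Bub1b and Tpx2) were called higher and 5 lower, and without line 7 altogether the same 3 were higher and 9 lower.

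Between 6 and 48 h the decrease was widest. At NLS t48, 15 of the 39 were lower than at NLS t6 and 0 were higher, where 13.6% of all genes were called lower and 14.6% higher. The median log2 fold change was -0.22, and t48 was below t6 in each line for 29 of the 39, against 31.8% of all genes. This comparison shares its libraries with both comparisons against t0. All 5 midzone and cytokinesis genes fell: Ect2 by 0.55 on the log2 scale (SE 0.09, adjusted p = 0.000474), Birc5 by 0.47 (SE 0.05, adjusted p = 2.12e-05), Anln by 0.34, Prc1 by 0.29 and Racgap1 by 0.22. Of the cyclins, Ccnb1 fell by 0.47 (SE 0.08, adjusted p = 0.000979), from 137, 157 and 134 CPM to 102, 112 and 94.8 CPM, and Ccna2 by 0.43 (SE 0.06, adjusted p = 9.82e-05). The groups did not overlap for either cyclin. Foxm1, Kif23, Kif4, Kif11, Cdc25b, Mki67, Smc4 and Cenpe also fell, by 0.27 to 0.53. Foxm1 went from 160.3, 174 and 161 CPM at t6 to 132, 139.7 and 136 CPM at t48 (adjusted p = 0.00202), and Kif23, a midzone kinesin, from 79.5, 88.5 and 84.4 CPM to 62.8, 68.2 and 65.7 CPM (adjusted p = 0.00531), both without overlap. The 7 kinase and checkpoint genes, with log2 fold changes from -0.21 to 0.15, and the 4 anaphase genes, from -0.11 to 0.08, did not pass the test without the block. With the cell line as a block, 28 fell and 2 rose (20.6% of all genes in each direction), the 2 being Aurka (0.12) and Bub1b (0.15). Without line 6 the count was 7 and without the t6 library of line 7 it was 9, of which 1 (Bub1b) was higher at t48. The adjusted p of Kif4 was 0.0803 without line 6 and that of Kif23 was 0.0521 without line 16.

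The LacZ lines moved the other way. At LacZ t48, 11 of the 39 were called higher than at LacZ t0 and 0 lower, where 8.68% of all genes were called higher and 9.87% lower. The 11 were Kif20a, Aurka, Aurkb, Birc5, Cdk1, Prc1, Tpx2, Cdc20, Racgap1, Ccnb1 and Ube2c. The median log2 fold change was 0.22, and t48 was above t0 in both lines for 32 of the 39, against 37.6% of all genes. With the cell line as a block, 27 rose and 3 fell (16.5% of all genes in each direction). The 3 that fell were Ect2 (-0.32, adjusted p = 0.00032), Cenpe (-0.26, adjusted p = 0.0056) and Smc4 (-0.19, adjusted p = 0.04). The blocked fit takes all 13 libraries, and LacZ libraries of the same line did not deviate together (r = -0.02). What the pairing of the LacZ lines added to these counts was not tested.

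Values of the LacZ lines are given for line 10 and then line 12. Kif20a, a kinesin needed for cytokinesis, was at 629 and 614 CPM at t0 and at 865 and 859 CPM at t48 (log2 fold change 0.47, SE 0.08, adjusted p = 0.00161). Aurkb was at 59.6 and 54.2 CPM and then at 83.1 and 75.9 CPM (0.48, SE 0.09, adjusted p = 0.003). Cdk1 was at 186 and 185 CPM and then at 252 and 236 CPM (0.40, SE 0.09, adjusted p = 0.00698). For all 11 genes both t48 libraries were above both t0 libraries. Aurka, the Aurora kinase of the spindle poles, went from 133 and 131 CPM to 172 and 164 CPM (0.35, SE 0.06, adjusted p = 0.00165), and Tpx2, which activates it on microtubules, from 281 and 296 CPM to 372 and 369 CPM (0.36, SE 0.08, adjusted p = 0.0098). Birc5 went from 142 and 129 CPM to 175 and 161 CPM (0.31, SE 0.06, adjusted p = 0.00511). Prc1 went from 212 and 219.6 CPM to 263 and 271 CPM (0.31, SE 0.07, adjusted p = 0.0079), and Cdc20 from 109.0 and 96.6 CPM to 134 and 121 CPM (0.31, SE 0.08, adjusted p = 0.0138). The 3 others ran from 414 and 425 CPM to 508 and 511 CPM for Racgap1, from 106 and 115 CPM to 146 and 142 CPM for Ccnb1, and from 124 and 129.9 CPM to 159 and 157 CPM for Ube2c. Both lines are needed for the calls. Without line 10, 0 of the 39 were called and without line 12, 1 was, the lone library of each group then being assumed to vary like the other groups. The log2 fold change of Kif20a was 0.48 without line 10 (adjusted p = 0.0575) and 0.47 without line 12 (0.0582), and that of Cdk1 0.35 (0.173) and 0.45 (0.0818). Leaving out single LacZ libraries gave counts of 4 to 7. Without the t48 library of line 10, Birc5 (adjusted p = 0.0537), Cdc20 (0.117), Cdk1 (0.0607) and Tpx2 (0.0512) lost their calls, and without the t0 library of line 12, Birc5 (0.0604) and Cdc20 (0.131) did. Prc1 lost its call without the t0 library of line 10 (0.066) or the t48 library of line 12 (0.0513), and Tpx2 without the former (0.0802).

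**Figure D2:**
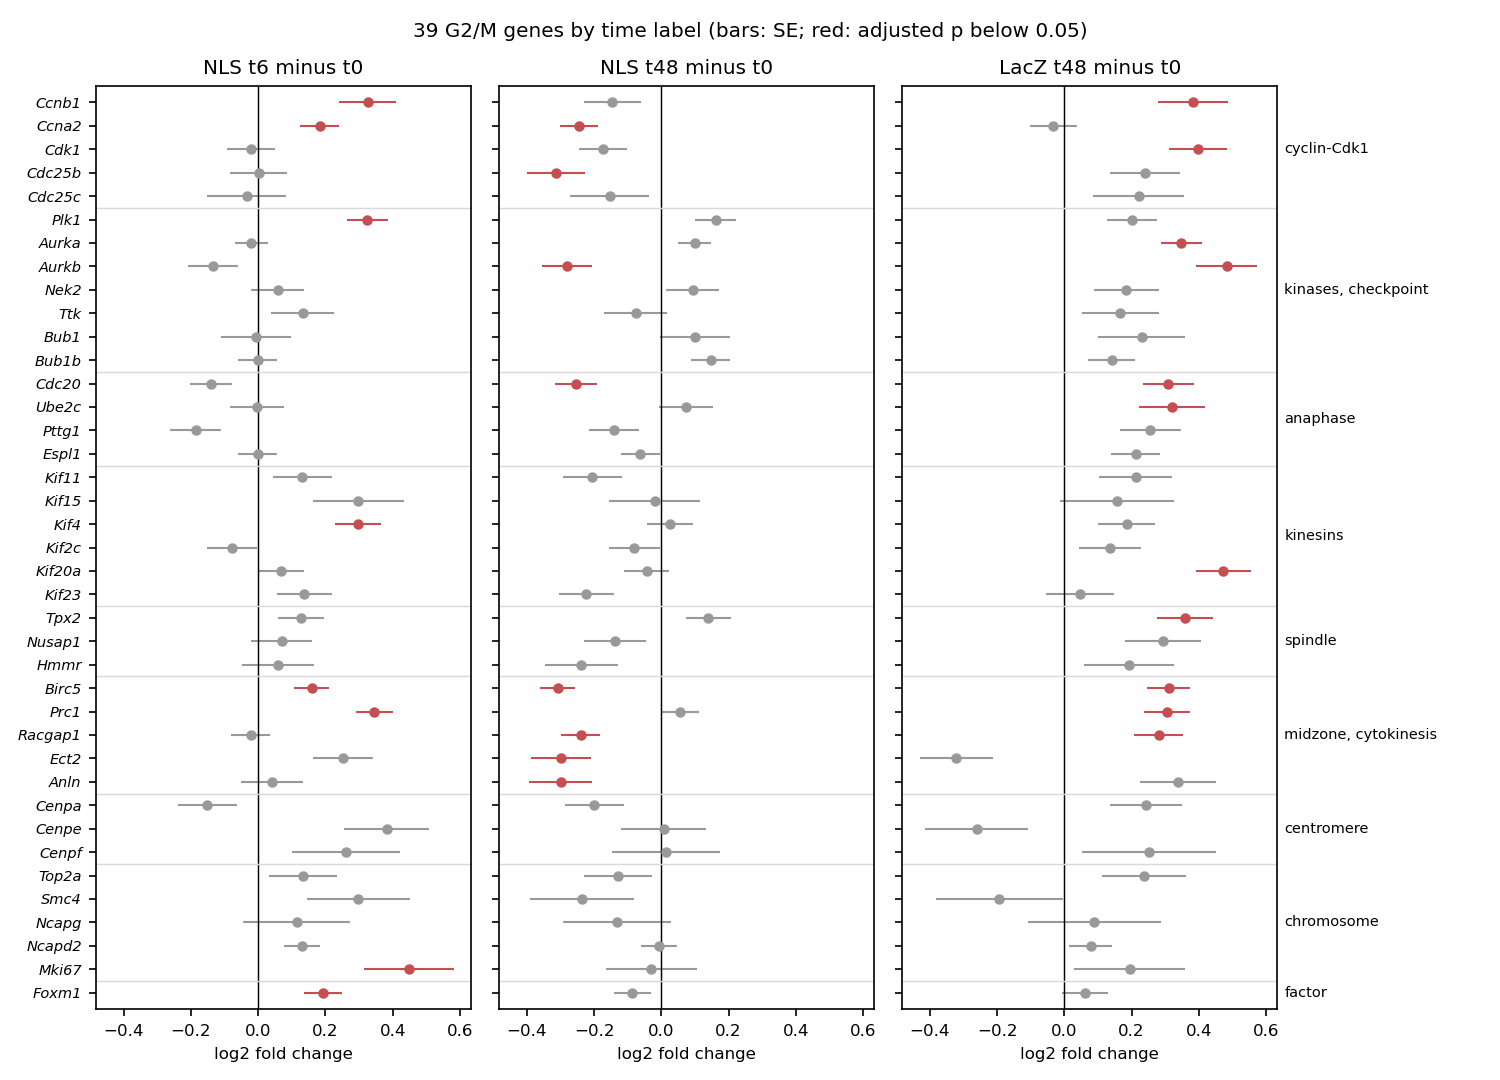
Log2 fold changes of the 39 tested G2/M genes (rows, grouped by role) for NLS t6 minus t0, NLS t48 minus t0 and LacZ t48 minus t0. Points are edgeR estimates, bars are standard errors and red marks an adjusted p below 0.05. Red points lie to the right at NLS t6 (8 genes) and LacZ t48 (11 genes) and to the left at NLS t48 (8 genes).

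Whether the 48 h responses differed between the constructs was tested directly, as the NLS change minus the LacZ change. The difference was below 0 and called for 15 of the 39 and above 0 and called for 0, where 11.2% of all genes were called below and 12.1% above. The median difference was -0.25 on the log2 scale. With the cell line as a block, 25 were called below and 1 above (18.5% and 18.9% of all genes), the 1 being Cenpe (0.28, adjusted p = 0.017). The largest differences were those of Aurkb (-0.76, SE 0.12, adjusted p = 0.000526), Anln (-0.64, SE 0.15, adjusted p = 0.00744) and Birc5 (-0.62, SE 0.08, adjusted p = 0.000171). Aurkb and Birc5 form 1 complex, and each rose in the LacZ lines and fell in the NLS lines. Cdc20 (-0.56, SE 0.10, adjusted p = 0.00126) and Racgap1 (-0.52, SE 0.09, adjusted p = 0.00146) did the same. Aurkb, Birc5, Cdc20 and Racgap1 were also called higher in the NLS lines than in the LacZ lines at t0. That comparison uses the same t0 libraries with the opposite sign, so the 2 results are not independent. Mean Aurkb went from 88.6 to 72.9 CPM in the NLS lines and from 56.9 to 79.5 CPM in the LacZ lines. Cdk1 (-0.57, SE 0.11, adjusted p = 0.00264) and Kif20a (-0.52, SE 0.11, adjusted p = 0.00343) rose in the LacZ lines, with log2 fold changes of -0.17 and -0.04 in the NLS lines that were not called. Cdc25b (-0.55, SE 0.13, adjusted p = 0.00986) and Ccnb1 (-0.53, SE 0.13, adjusted p = 0.0122) followed. The remaining 6 were Pttg1, Aurka, Cenpa, Kif11, Nusap1 and Espl1, with differences from -0.44 (Cenpa) to -0.25 (Aurka). The LacZ t48 label conflict bears on this comparison most, and its part in the result was not tested. The count was 6 without line 10, 7 without line 12, 7 without line 6 and 9 without the LacZ t0 library of line 12. Without line 10 or line 12 the adjusted p of Anln was 0.0716 and 0.0584, and Cdc25b lost its call without lines 10, 12 or 6 (0.0811, 0.0833 and 0.067).

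**Figure D3:**
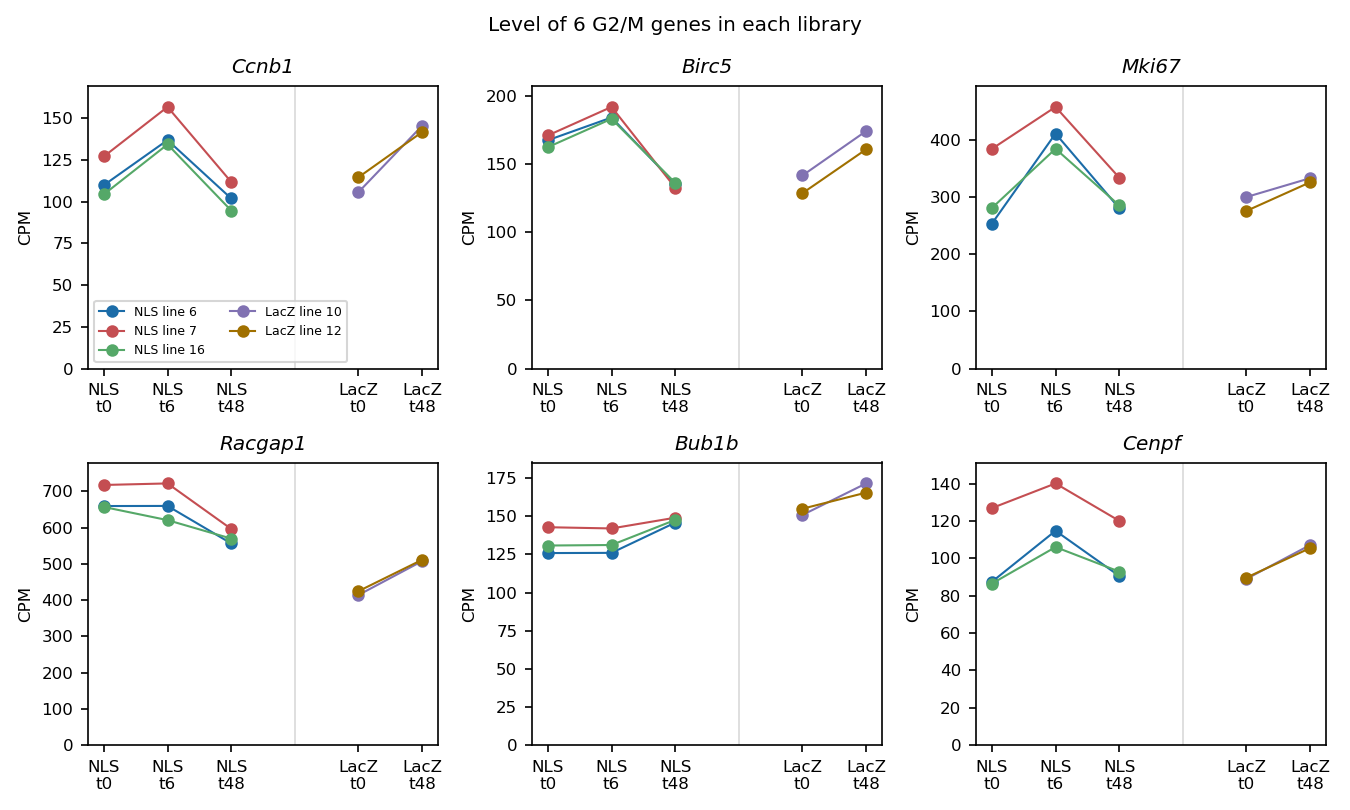
Level, in CPM, of Ccnb1, Birc5, Mki67, Racgap1, Bub1b and Cenpf in each of the 13 libraries, with lines joining libraries of a cell line and axes starting at 0. Ccnb1, Birc5 and Mki67 are highest at NLS t6 in each NLS line, Racgap1 is higher in each NLS library than in each LacZ library, Bub1b is higher in each LacZ library than in each NLS library, and line 7 is the highest NLS line for Cenpf.

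Before doxycycline the NLS and LacZ lines differed in some members in each direction, in shares that do not set the list apart. At t0, 9 of the 39 were higher in the NLS lines and 6 were lower, where 21.1% of all genes were called higher and 22.4% lower. Construct and cell line are the same division here, so the construct and the choice of lines cannot be told apart. The higher genes were Racgap1, Aurkb, Birc5, Espl1, Top2a, Hmmr, Cdc20, Prc1 and Kif11, and the lower ones Kif20a, Cdc25c, Ncapd2, Pttg1, Bub1b and Cenpe. Racgap1 was at 414 and 425 CPM in LacZ lines 10 and 12 and at 657 to 718 CPM in the NLS lines, a log2 fold change of 0.69 (SE 0.07, adjusted p = 2.39e-06). It was the only tested gene of the list with all 9 NLS libraries above all 4 LacZ libraries, which held for 11.3% of all genes. Aurkb was at 59.6 and 54.2 CPM against 81.6 to 94.5 CPM (0.64, SE 0.08, adjusted p = 4.11e-05), and Top2a at 403 and 413 CPM against 503 to 677 CPM (0.50, SE 0.12, adjusted p = 0.00395). Hmmr, a spindle-pole microtubule protein, was at 123 CPM in both LacZ lines and at 155 to 199 CPM in the NLS lines (0.49, SE 0.12, adjusted p = 0.00618). Birc5 was at 142 and 129 CPM against 163 to 171 CPM (0.31, SE 0.06, adjusted p = 0.000892), and Espl1, the protease separase, at 102 and 93.7 CPM against 117 to 122 CPM (0.28, SE 0.07, adjusted p = 0.0037). Cdc20 was at 109.0 and 96.6 CPM against 122 to 125 CPM, and Prc1 at 212 and 219.6 CPM against 235 to 257 CPM. At t0 all of these genes were higher in each NLS library than in each LacZ library.

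Of the lower genes, Bub1b, the checkpoint kinase BubR1, was at 151 and 155 CPM in the LacZ lines and at 126, 143 and 131 CPM in NLS lines 6, 7 and 16 (log2 fold change -0.20, SE 0.06, adjusted p = 0.0235). Pttg1, the separase inhibitor securin, was at 21.8 and 21.5 CPM against 16.7, 17.2 and 17.1 CPM (-0.35, SE 0.08, adjusted p = 0.00396). Ncapd2, a condensin subunit, was at 202 and 209 CPM against 160.3, 175 and 173 CPM (-0.28, SE 0.06, adjusted p = 0.00168). Cenpe was at 127 and 121 CPM against 78.1, 115 and 88.8 CPM (-0.40, SE 0.14, adjusted p = 0.0362), with line 7 nearest to the LacZ lines. With Kif20a and Cdc25c, Bub1b, Pttg1 and Ncapd2 were the 5 genes with all LacZ libraries above all NLS libraries, which held for 12.1% of all genes. Calls that were lost without 1 library or line were those of Bub1b and Cenpe in 8 of 10 fits (adjusted p up to 0.159, without line 12, and 0.212, without line 10), Prc1 in 6 (up to 0.145, without the LacZ t0 library of line 10), and Cdc20, Espl1 and Hmmr in 2 each (up to 0.131 and 0.0608 without the LacZ t0 library of line 12, and 0.0549 without line 10). The count was 9 without the LacZ t0 library of line 12 and 8 without line 12.

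Kif20a and Cdc25c had by far the largest differences of the list, and they are neighbours on chromosome 18. Their lower genome coordinates are 108 kb apart. Distances in this region are taken between the lower coordinates of genes, whatever their strand. Kif20a was at 614 to 865 CPM in the 4 LacZ libraries and at 204 to 243 CPM in the 9 NLS libraries, a log2 fold change of -1.52 at t0 (SE 0.07, adjusted p = 2.1e-09). Cdc25c, a phosphatase of Cdk1, was at 73.1 to 90.4 CPM and 22.1 to 31.8 CPM, a log2 fold change of -1.50 (SE 0.13, adjusted p = 7.09e-07). The other genes of the region were therefore examined, after these values were seen. On that measure 23 tested genes lie within 1 Mb of Kif20a, Cdc25c included. Of the 23, 20 were called lower in the NLS lines and 1 higher, against 22.4% and 21.1% of all genes. Their median log2 fold change was -1.50, and the middle range, from the lower to the upper quartile, ran from -1.55 to -1.22. In 20 of the 23, all LacZ libraries were above all NLS libraries, and the median ratio of LacZ to NLS at t0 over the 23 was 2.82-fold.

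The genes of the region have unlike roles. Among them Hspa9, a mitochondrial chaperone, was at 3284 to 3939 CPM in the LacZ lines and 1075 to 1288 CPM in the NLS lines. Ctnna1, an adhesion protein, was at 1059 to 1207 CPM and 343 to 422 CPM, and Apc, a brake on Wnt signalling, at 255 to 266 CPM and 84.9 to 109 CPM. Cdc23, a subunit of the anaphase-promoting complex, overlaps Kif20a on the opposite strand, with their lower coordinates 6.34 kb apart. It was at 215 to 237 CPM in the LacZ lines and at most at 81.8 CPM in the NLS lines. The log2 fold changes of Kif20a and Cdc25c were thus within the middle range of their neighbours. At LacZ t48 against t0 the median log2 fold change of the 23 neighbours was 0.06, while Kif20a rose by 0.47. At NLS t48 against t0, 7 of the 23 neighbours were called lower and 0 higher, with a median of -0.18, against 11.3% of all genes called lower, and the log2 fold change of Kif20a was -0.04. For the other genes of the list the median log2 difference of the neighbours lay between -0.46 and 0.50. DNA copy number was not measured.

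**Figure D4:**
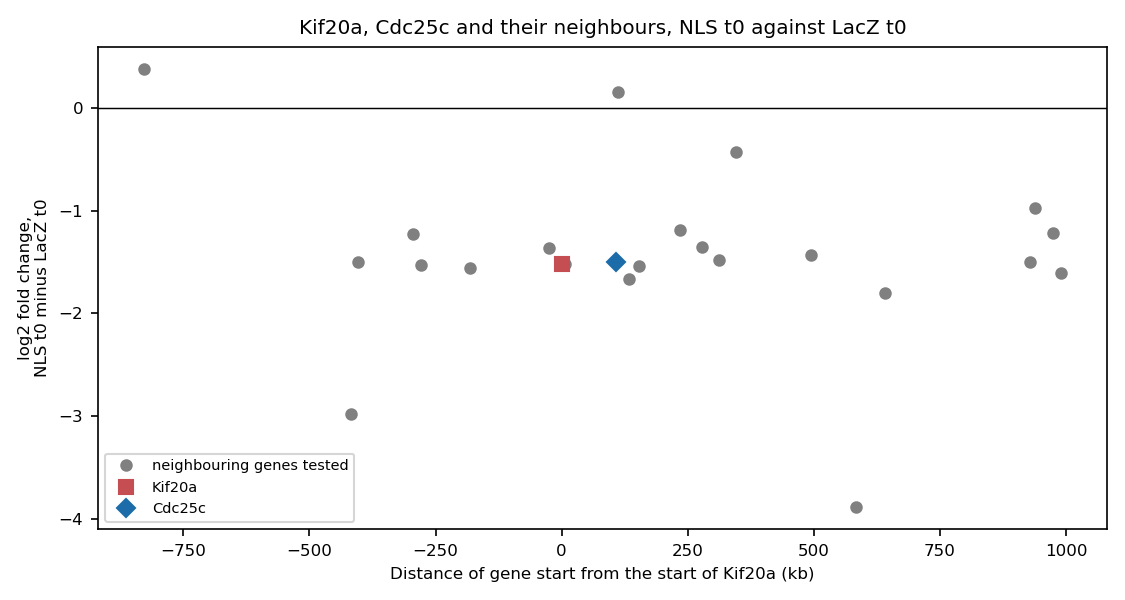
Log2 fold change, NLS t0 minus LacZ t0, of Kif20a (square), Cdc25c (diamond) and the other tested genes within 1 Mb of Kif20a (circles), against their distance from Kif20a in kb. The start named on the axis is the lower genome coordinate of each gene, whatever its strand. Most points, both members of the list included, lie near the median of -1.50.

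The 3 NLS lines differed among themselves, and line 7 had the most mitotic mRNA. These comparisons take the libraries of all times together with the time as a term in the model. Each line has 1 library per time, so its 3 times stand in for replicates. The p-values thus measure scatter over times in these libraries, and not between cultures of a line. Line 7 was above line 16 for 27 of the 39 and below for 0, where 11.8% of all genes were called higher and 10.8% lower. Against line 6 it was higher for 17 and lower for 0, where 5.9% of all genes were called higher and 5.19% lower. Line 6 was above line 16 for 4 and below for 0, where 0.882% and 1.38% of all genes were called. Line 7 was above both other lines at each of the 3 times for 32 of the 39, against 15.3% of all genes. Adcy10 was higher in line 6 than in line 7 and nearly absent from line 16. The summed level of the list, without Kif20a and Cdc25c, was highest in line 7 and lowest in line 16 at each time. Whether the levels are related was not tested.

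Cenpf led the line difference, at 127, 140.2 and 120.2 CPM at t0, t6 and t48 in line 7, at 87.5, 115 and 90.7 CPM in line 6 and at 86.5, 106 and 93.0 CPM in line 16. Every library of line 7 was above every library of the other lines. The log2 fold change was 0.44 against line 16 (SE 0.05, adjusted p = 7.53e-06) and 0.41 against line 6 (SE 0.05, adjusted p = 4.64e-05). Ncapg, a condensin subunit, was at 80.9, 83.2 and 69.0 CPM in line 7, against at most 60.4 CPM in line 6 and 66.5 CPM in line 16 (0.42 against line 16, SE 0.05, adjusted p = 3.81e-05). Smc4, in the same complex, was at 199.6, 225 and 151 CPM in line 7, at 140.0, 177 and 134 CPM in line 6 and at 133, 179 and 117 CPM in line 16 (0.43, SE 0.06, adjusted p = 8.05e-05). At each time line 7 was the highest, although its t48 library lay below the t6 libraries of the others. Top2a (0.32, SE 0.05, adjusted p = 0.000104), Hmmr (0.30, SE 0.04, adjusted p = 0.000131) and Ccnb1 (0.25, SE 0.04, adjusted p = 0.000449) were also higher in line 7 than in line 16. Cdc25b was at 144, 148 and 115 CPM in line 7 at t0, t6 and t48 and at 117, 123 and 99.7 CPM in line 16 (0.26, SE 0.04, adjusted p = 0.000325). Ube2c was at 129.7, 132 and 141 CPM against 111, 112 and 117 CPM (0.24, SE 0.04, adjusted p = 0.000364). All 3 centromere genes, all 3 spindle genes and all 5 tested genes of the cyclin and Cdk1 group were called in that comparison, but 1 of the 4 anaphase genes (Ube2c). Plk1 (0.01) and Cdc20 (-0.06) had log2 fold changes near 0.

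Against line 6, Cenpe was at 115, 133 and 107 CPM in line 7 and at 78.1, 112.5 and 86.3 CPM in line 6 at t0, t6 and t48 (0.37, SE 0.05, adjusted p = 0.000303). Anln was at 415, 418 and 318 CPM against 325, 355 and 278 CPM (0.26, SE 0.04, adjusted p = 0.000818). The checkpoint kinase Bub1 was at 90.9, 81.7 and 86.3 CPM against 66.7, 72.0 and 79.6 CPM (0.25, SE 0.06, adjusted p = 0.00744), and Ttk, also a checkpoint kinase, at 49.9, 53.3 and 44.8 CPM against 41.5, 45.0 and 39.6 CPM (0.23, SE 0.05, adjusted p = 0.00814). Each was higher in line 7 at each time, and Bub1 did so with no overlap between the lines. Between lines 6 and 16, the microtubule binder Nusap1 was at 95.4, 103 and 87.8 CPM against 81.7, 87.7 and 79.5 CPM (0.20, SE 0.05, adjusted p = 0.0301). Cdk1 was at 218, 211 and 189 CPM in line 6 against 194, 188 and 173 CPM (0.16, SE 0.04, adjusted p = 0.0447). Ube2c (0.16, adjusted p = 0.0468) and Cdc25b (0.17, adjusted p = 0.0473) were the other 2. The centrosomal kinase Nek2, at 59.2 to 73.4 CPM over all libraries, and Kif15, a spindle kinesin at 22.8 to 37.2 CPM, were higher in line 7 than in line 16. Without the block neither passed the test in a comparison of times or constructs, while with it Kif15 rose at NLS t6 (adjusted p = 0.00639) and Nek2 at LacZ t48 (0.021). Kif2c, a microtubule-depolymerising kinesin at 60.5 to 75.4 CPM, passed in none of the 10 comparisons.

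Without the time term the count of members called was 0 for each of the 3 NLS pairs, and of all genes 9 were called between lines 7 and 16, 0 between lines 7 and 6 and 1 between lines 6 and 16. With it, the count for line 7 against 16 was 19 to 28 when a library or line was left out. For line 7 against 6 the count was 7 without the t0 library of line 7 and 9 without that of line 6, and Bub1 (adjusted p = 0.0862 and 0.0586) and Ttk (0.0723, without the former) lost their calls there. For line 6 against 16 it fell to 0 without the t0 or t6 library of line 16 or the t48 library of line 6, and DESeq2 called 0. Nusap1 lost its call in 4 of 9 such fits, Cdk1 and Cdc25b in 7 and Ube2c in 8. The adjusted p rose to 0.217 for Nusap1, 0.223 for Ube2c and 0.308 for Cdc25b without the t0 library of line 16, and to 0.239 for Cdk1 without its t6 library. Between LacZ lines 12 and 10, 0 of the 39 were called by edgeR (0.123% of all genes were called in either direction). At an unadjusted p below 0.05 there were 4, and DESeq2 called 0. The smallest p-values were those of Cdc20 (-0.16, SE 0.05, adjusted p = 0.205), at 109.0 and 134 CPM in line 10 and at 96.6 and 121 CPM in line 12 at t0 and t48, and of Birc5 (-0.13, SE 0.05, adjusted p = 0.289).

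**Figure D5:**
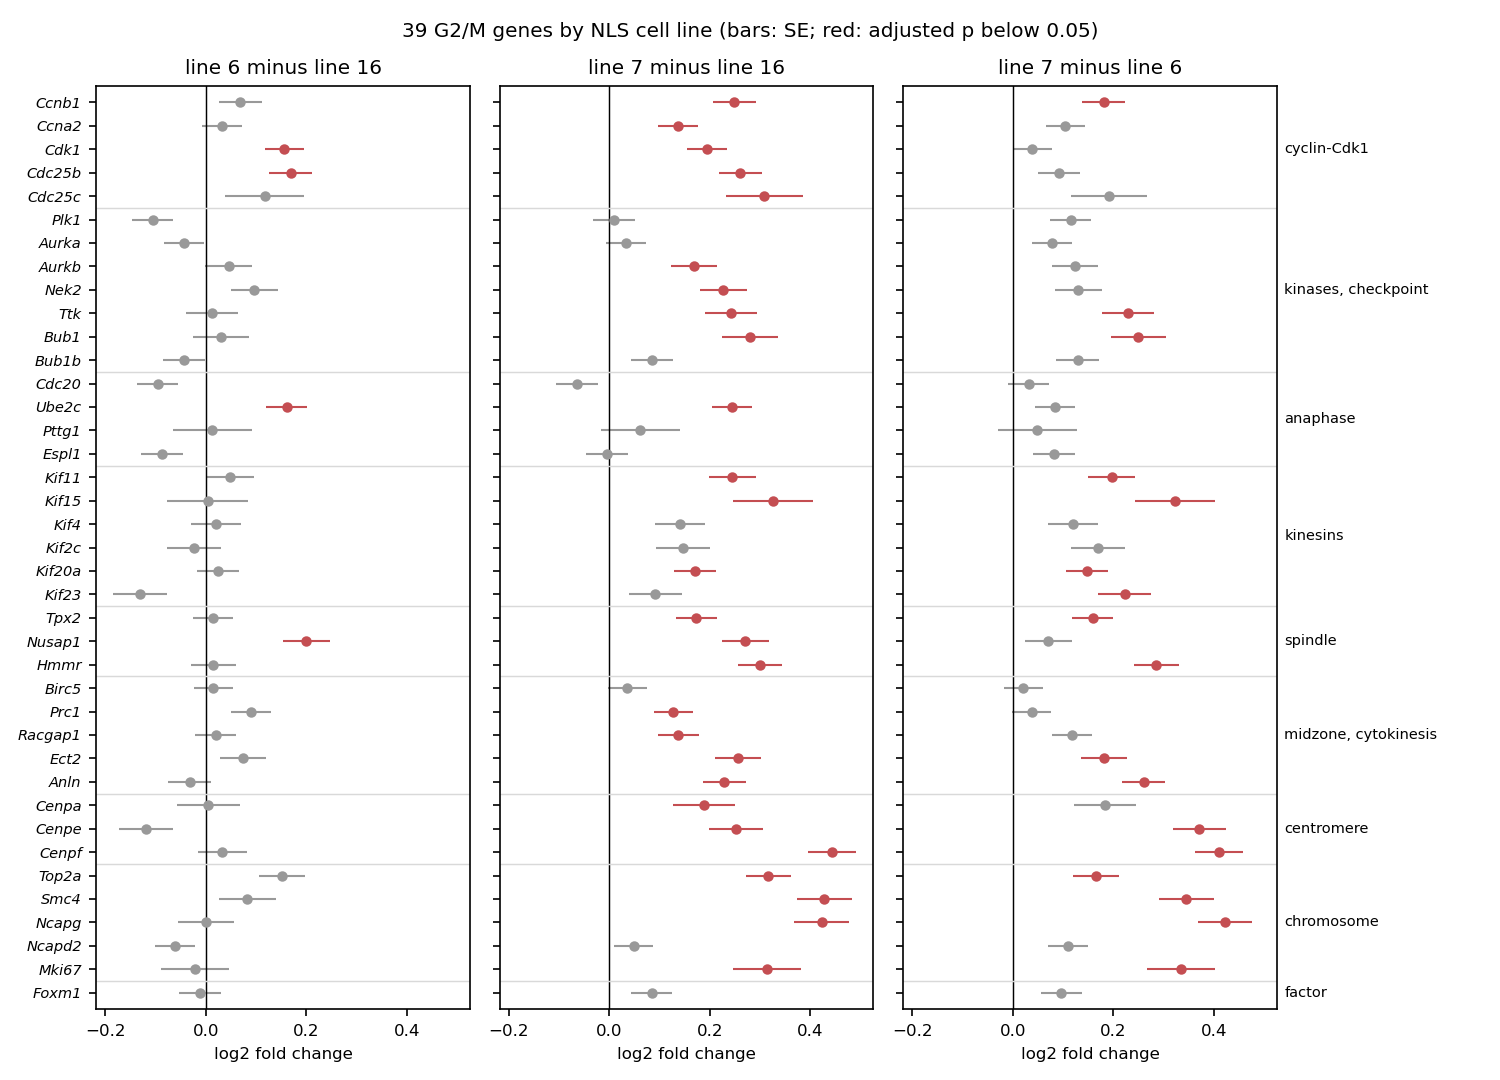
Log2 fold changes of the 39 tested G2/M genes (rows, grouped by role) between the NLS cell lines 6, 7 and 16, over all 3 times. Points are edgeR estimates with time in the model, bars are standard errors and red marks an adjusted p below 0.05. Line 7 is higher than line 16 for 27 genes and than line 6 for 17, with no red point to the left.

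Transcript length and base composition moved with these differences. Across 13034 genes with a value, the log2 fold change of line 7 against line 16 had a Spearman correlation of -0.47 with GC content and 0.15 with length, and across the 39 genes the values were -0.74 and 0.39. Other pairs of lines had such a correlation with GC content too. Over all genes it was -0.34 for line 6 against 16, -0.29 for line 7 against 6 and -0.29 for LacZ line 12 against 10. Over the 39 genes it was -0.25, -0.68 and -0.63. These are correlations across genes of the same libraries and carry no test. Ncapg (39.1% GC), Smc4 (39.2% GC) and Cenpf (43.3% GC) had the highest log2 fold changes of the 39, and Cdc20 (55.6% GC), Espl1 (56.0% GC) and Plk1 (56.0% GC) the lowest. Each log2 fold change was therefore also set against the median of genes of like length and GC content (10 classes of length, each split into 10 of GC content), a comparison chosen after seeing the data. On that scale all 39 genes were above the genes like them in line 7 against line 16, by a median of 0.16 (0.19 before). Against line 6 the median was 0.15, with 38 of 39 above. For line 6 against line 16 it was -0.006 (0.015 before), with 16 above and 23 below. Cenpf was then 0.27 and Ube2c 0.29 above genes of like make-up.

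In the time comparisons length and base composition also moved with the log2 fold changes. For NLS t6 against t0 the correlation of log2 fold change with length was 0.16 over all genes and 0.53 over the 39 genes, and with GC content it was -0.08 and -0.40. Against genes of like length and GC content, 29 of the 39 were above at NLS t6, with a median of 0.09, and 30 were below at NLS t48 against t0, with a median of -0.08. At LacZ t48 35 were above, with a median of 0.21, and in the difference of the 48 h responses 37 were below, with a median of -0.23. Plk1, of high GC content, was 0.37 above its like genes at NLS t6, as was Mki67, and Prc1 was 0.34 above. The part of length and base composition in single calls was not tested.

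The wider mitotic machinery was followed through 7 further lists with 109 entries, none of them members. Their counts at NLS t6 stand beside 11.6% of all genes called higher and 9.23% lower, and are too small to set a list apart. At NLS t6 the only kinetochore gene of 20 called was Bub3, a checkpoint protein, which rose by 0.29 (SE 0.05, adjusted p = 0.000671). Ube2s, which extends ubiquitin chains for the anaphase-promoting complex, rose by 0.40 (SE 0.06, adjusted p = 0.000577) among 2 of 14 genes of that complex called higher and 3 lower. Mybl2, which encodes B-Myb, rose by 0.28 (SE 0.08, adjusted p = 0.0242) and was the only 1 of 11 genes of the MuvB and DREAM list called. Wee1, the kinase that holds Cdk1 inactive, was higher at t6 (0.44, SE 0.08, adjusted p = 0.00148) and at t48 (0.53, SE 0.08, adjusted p = 0.000224) than at t0. Of 17 further spindle and cytokinesis genes, 3 were called higher at NLS t6 and 0 lower, Kif22 and Numa1 among them. At NLS t48 against t0, 1 was higher and 1 lower (14.8% and 11.3% of all genes). At LacZ t48, 6 were higher and 1 lower (8.68% and 9.87% of all genes), led by Tacc3 (0.46, SE 0.06, adjusted p = 0.000408), and Zwint, a kinetochore linker, rose by 0.41 there (SE 0.06, adjusted p = 0.00059).

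Genes of G1/S and replication, which act before mitosis in the cycle, were counted in the same way, beside 11.6% and 9.23% of all genes called higher and lower at NLS t6, 14.8% and 11.3% at NLS t48 against t0, 8.68% and 9.87% at LacZ t48, and 12.1% and 11.2% in the difference of the 48 h responses. Of 24, 4 were higher and 0 lower at NLS t6, with a median log2 fold change of 0.07, and 1 was higher and 11 lower at NLS t48 against t0, with a median of -0.20. At LacZ t48 10 were higher and 0 lower (median 0.20), and in the difference of the 48 h responses 1 was called above 0 and 12 below (median -0.40). Tk1, thymidine kinase, fell by 0.47 at NLS t48 (SE 0.07, adjusted p = 0.000338), whereas Ccne1, cyclin E1, rose by 0.65 (SE 0.06, adjusted p = 5.71e-06). For line 7 against line 16, where 11.8% of all genes were called higher and 10.8% lower, 6 of these 24 were higher and 0 lower, against 11 higher and 1 lower of 20 kinetochore genes, and 8 higher and 0 lower of 11 condensin and cohesin genes. Knl1, the kinetochore scaffold (0.58, SE 0.06, adjusted p = 5.04e-06), and Stag2, a cohesin subunit (0.47, SE 0.05, adjusted p = 8.86e-06), had larger log2 fold changes there than any of the 39. Genes of these further lists were not set against genes of like length and GC content.

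Within the list the genes varied together to unequal degrees. The correlation of each gene's log2 CPM with the mean of the other members over the 13 libraries is a description, since all values share the same libraries. It was highest for Ttk, a checkpoint kinase (r = 0.95), Ccnb1 (0.93) and Anln (0.91), and lowest for Pttg1 (0.20), Bub1b (0.20), Cdc25c (0.24) and Kif20a (0.24). The latter 4 are among the 5 genes with all LacZ libraries above all NLS libraries. Outside the list, the genes whose pattern over the 13 libraries was most like the members' mean were Fam111a (r = 0.97), Cep55 (0.96), Mcm4 (0.96), Cul1 (0.93), Tmpo (0.92), Tipin (0.92), Traf5 (0.92), Ptprj (0.92), Fanci (0.91) and Topbp1 (0.91).

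For some members the gene-level value sums unlike transcripts. Only 31.7% of the Cenpa reads were assigned to coding transcripts, and the leading transcript, Cenpa-202 with 38.3%, is annotated for nonsense-mediated decay. The coding share of Smc4 ran from 45.9% to 71.9% between libraries, with its decay-annotated transcript Smc4-207 at 27.0% to 54.0%. Cenpa, the centromeric histone, and Smc4 are thus less certain as measures of protein-coding mRNA than Ccna2, for example, where 98.7% was coding. Of the 40 genes, 10 overlap a gene on the opposite strand. Exosc9 overlaps Ccna2, Elovl1 overlaps Cdc20, Pdzd11 overlaps Kif4 and Cdc23 overlaps Kif20a. The kit keeps strand, per the labels' protocols, but the setting used in counting is not known here, so reads of such pairs may be shared.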

How the data were processed

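RNA of 13 samples was extracted with Trizol and sequenced as stranded, paired-end mRNA libraries, per the labels' protocols. Salmon 1.2.0 and the build GRCm38 are named in the submitters' processing notes. The deposited files give estimated counts per transcript, which Salmon divides among transcripts that fit a read, and TPM values, scaled by the authors to transcript length and depth. Salmon's transcript set and settings are not known here. Estimated counts and TPM were summed over GRCm38 genes (GENCODE M21) and the counts were rounded. Unmatched transcripts held 0.121 to 0.165% of reads and were left out. Groups follow the titles.

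The quasi-likelihood test of edgeR 4.0.16 (R 4.3.3) was run with TMM scaling, the edgeR filter on low counts and 5 group means over all 13 libraries. Cell lines were compared in a model of line and time. P-values were adjusted by Benjamini-Hochberg over 13044 genes, with calls below 0.05. Levels are CPM on TMM library sizes, and standard errors come from the test statistic. Alternatives were DESeq2 1.42.0, RLE scaling, no filter, the cell line as a block, only the libraries compared, and leaving out each library or line. For likeness, log2(CPM + 1) was used. The fit was also run on simulated counts, with the same spread setting for all genes and no differences between lines. These libraries differ from that setting, so the run does not test the calls made here.

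The members and lists were chosen with earlier results of these data known. Named members are, in each comparison and direction, up to 8 called with the smallest p, or where none is called the 2 with the smallest p, and from other lists up to 2. Figures and transcripts were chosen after values were seen. The cell line numbers pair libraries because 1 number is 1 cell line in the labels. Deviations from group means correlated across genes at r = 0.025 to 0.282 for 9 NLS pairs of the same line and -0.263 to 0.0524 for 18 pairs of different lines. Between the LacZ times it was -0.02. No 2 libraries of a group agreed within sampling noise (lowest chi-square per degree of freedom 7.26). P-values measure only the spread between these libraries.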

Additional observations from a re-analysis of the deposited data

Results flagged for a closer look

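Responses at 48 h that differed between the NLS and LacZ lines, by the test of the difference itself, were found for 15 members. On the log2 scale, as the NLS change minus the LacZ change, the differences were Birc5 -0.62, Aurkb -0.76, Cdc20 -0.56, Racgap1 -0.52, Cdk1 -0.57, Kif20a -0.52, Anln -0.64, Cdc25b -0.55, Ccnb1 -0.53, Pttg1 -0.40, Aurka -0.25, Cenpa -0.44, Kif11 -0.42, Nusap1 -0.43 and Espl1 -0.28. All 15 were below 0, and 11.2% of all genes were called below 0. The test shares its t0 libraries with the comparison of NLS t0 against LacZ t0. The LacZ t48 libraries carry the microdomain label of the NLS lines, the LacZ groups hold 2 libraries each, and the part of either in the differences was not tested.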

How the results depend on the processing

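The cell line as a replicate block, which pairs the libraries of a line, moved every time comparison of the members past 1.5 times. The members called were 20 for NLS t6 against t0, 20 for NLS t48 against t0, 30 for NLS t48 against t6, 30 for LacZ t48 against t0 and 26 for the difference of the 48 h responses. Over all genes the block gave 4527, 5188, 5373, 4308 and 4875 calls, against 2716, 3402, 3673, 2419 and 3045 without it. No blocked fit exists for NLS t0 against LacZ t0, where lines lie within constructs. Comparisons of times with a library or line left out took no block, so how far the blocked counts depend on single libraries was not tested. Fitting only the libraries compared gave 4 members at NLS t6, 20 at LacZ t48 and 8 for line 7 against 6, and over all genes 744 for line 7 against 6 and 303 for LacZ line 12 against 10. DESeq2 gave 0 members for line 6 against 16, and over all genes 1675 for line 7 against 16, 835 for line 7 against 6 and 45 between the LacZ lines. Without the low-count filter the LacZ lines differed in 83 genes, against 16. Without the time term 0 members were called for each pair of NLS lines, with 1, 9 and 0 genes in all for lines 6 and 16, 7 and 16 and 7 and 6, and 0 between the LacZ lines.

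Leaving out 1 library or line gave, for members, 2 to 17 at NLS t6, 2 to 12 at NLS t48 against t0, 7 to 20 for NLS t48 against t6, 0 to 7 at LacZ t48, 6 to 16 for the difference of responses, 8 to 18 for NLS t0 against LacZ t0, 0 to 5 for line 6 against 16, 19 to 28 for line 7 against 16, 7 to 20 for line 7 against 6 and 0 to 0 between the LacZ lines. Over all genes the ranges in that order were 994 to 2817, 1592 to 3076, 2034 to 3333, 522 to 1290, 1272 to 3176, 3869 to 5687, 113 to 583, 1503 to 3164, 596 to 1426 and 7 to 174. Of the alternatives run on named members, 907 stayed on the same side of the threshold, 177 lost a call and 0 changed direction, and the cause was not tested. The 907 include the fits of Cdc20 and Birc5 between the LacZ lines, which had no call to lose. At 18512887 reads or more per library, Ccnb2 had 1 to 9 reads, too few to compare.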
